A study of Mus musculus with 6 samples.

Results

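Wide promoter peaks of Bcl6 are described here: 373 of the 3878 ChIP-seq peaks called in mouse cortical progenitors. They were chosen by 2 readouts of the peak calls. A member peak had to be over 2000 bp wide, and the authors' gene list had to give exactly 1 gene whose transcription start site (TSS) lay within 1000 bp of the peak centre. The comparison class is the 1552 peaks with a single gene at the same distance but a width of at most 2000 bp, called narrow promoter peaks below. Width was thus the choosing value, and tags, fold enrichment, score and false discovery rate come from the same pooled contrast. All of them are given as a description, without a test.

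The cells were of A2 lox.Cre Bcl6, a mouse embryonic stem (ES) cell line with a tetracycline-inducible Bcl6 transgene, kept on feeder fibroblasts before differentiation into cortical progenitors. Cyclopamine, an inhibitor of Hedgehog signalling, was present at 400 ng/ml from day 2, the medium was changed back at day 10, and all cells received 1 µg/ml doxycycline for 24 h at day 12. DNA of 3 libraries was precipitated with a Bcl6 antibody (Santa Cruz Biotechnology) and 3 libraries were input DNA. The authors pooled each group before calling peaks, so each value below is a single pooled value with no replicate error. Both groups carried the induced transgene in 1 engineered line, and uninduced cells were not analysed here.

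Bcl6 is a repressor of the BTB zinc finger family that binds DNA through its zinc fingers and recruits corepressors such as BCOR through its BTB domain. It is best known from germinal centre B cells, and in the developing cortex it promotes the change from progenitor to neuron. Its preferred DNA element overlaps that of STAT proteins. Many mammalian promoters lie in CpG islands, GC-rich stretches in which the CpG dinucleotide is kept, and these are open to many DNA-binding proteins.

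The promoters of 6 members are shown because they hold the letters that the motif search turned on. Each is the 150 bases just before the annotated start, from RefSeq on GRCm38.p6 (the same build as mm10), written 5′ to 3′ in the direction of the gene. Capitals mark a Bcl6 element (TTCCTNGAA) in Gtf2i, the shorter STAT-like element (TTCNNNGAA) in Klf9 and Nop58, the TATA box (TATAAA) in both histone genes and the NRF1 element in Ptma, each on either strand. These 6 were picked after motif places and peak values had been seen.
Gtf2i, chr5:134314761-134314910, minus strand: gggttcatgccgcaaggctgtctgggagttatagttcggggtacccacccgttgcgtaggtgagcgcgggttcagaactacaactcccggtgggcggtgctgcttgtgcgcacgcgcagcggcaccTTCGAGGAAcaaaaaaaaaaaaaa
Klf9, chr19:23141076-23141225, plus strand: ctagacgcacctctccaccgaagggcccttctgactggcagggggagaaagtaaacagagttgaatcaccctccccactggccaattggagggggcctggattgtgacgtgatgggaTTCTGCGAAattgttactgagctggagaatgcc
Nop58, chr1:59684856-59685005, plus strand: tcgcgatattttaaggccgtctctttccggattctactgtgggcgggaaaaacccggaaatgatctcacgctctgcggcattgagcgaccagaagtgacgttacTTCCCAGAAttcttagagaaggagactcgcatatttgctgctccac
Hist1h3b, chr13:23752195-23752344, plus strand: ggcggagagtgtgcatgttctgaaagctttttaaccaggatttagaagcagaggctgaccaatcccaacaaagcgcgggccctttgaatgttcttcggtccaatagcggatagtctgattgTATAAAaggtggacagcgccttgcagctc
Hist1h1d, chr13:23554882-23555031, plus strand: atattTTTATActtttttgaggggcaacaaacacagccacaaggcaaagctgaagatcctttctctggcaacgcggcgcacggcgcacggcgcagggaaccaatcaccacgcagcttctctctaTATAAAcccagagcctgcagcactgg
Ptma, chr1:86526407-86526556, plus strand: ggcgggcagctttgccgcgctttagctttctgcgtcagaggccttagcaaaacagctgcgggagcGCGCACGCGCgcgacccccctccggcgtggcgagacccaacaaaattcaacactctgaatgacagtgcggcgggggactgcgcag

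Each of the 373 members was listed for a different gene, so 373 genes had such a peak and none had more than 1. Members made up 9.62% of all peaks and 19.4% of the 1925 single-gene promoter peaks (exact 95% binomial interval 17.6 to 21.2%). They were 373 of the 885 peaks over 2000 bp (42.1%), while 455 of the 885 lay away from promoters. Together they covered 1.00 Mb, which was 15.2% of the width of all peaks, and held 48085 ChIP tags, 16.2% of the tags in peaks. Intervals here and below cover counting error only, and neighbouring peaks are not independent.

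The median width of the members was 2482 bp, with quartiles of 2207 and 2901 bp and a longest peak of 8116 bp. Of the 373, 86 were over 3000 bp and 18 over 4000 bp. Narrow promoter peaks had a median of 1326.5 bp. At the threshold the classes met without a gap: Npepps and Lrp6 lay just inside at 2001 bp, followed by Pcgf3 at 2003 bp and Rps15 at 2005 bp, and Tnrc18 and Cux1 just outside at 2000 bp, followed by Rapgefl1 at 1999 bp and Kcnk5 at 1998 bp. Their fold enrichments overlapped, from 14.18 to 21.28 inside and from 11.11 to 19.46 outside. On the distance rule, Ubtf (993 bp), Hnrnpl (992 bp) and Celsr3 (978 bp) were the last inside, and Bahcc1 (1010 bp), Ech1 (1015 bp) and BC031181 (1026 bp) the first outside.

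Fold enrichment, which is the peak caller's ratio of ChIP over local background from the input, had a median of 17.48 in members (quartiles 13.96 and 22.34) and of 21.28 in narrow promoter peaks. Of the members 103 (27.6%, 23.1 to 32.5%) lay above the median of all peaks, also 21.28, against 738 of 1552 narrow promoter peaks (47.6%, 45.0 to 50.1%). The order was the opposite for ChIP tags per kb of peak. Its median was 44.2 in members and 39.8 in narrow promoter peaks, and 252 members (67.6%) against 764 narrow promoter peaks (49.2%) exceeded the median of all peaks, 39.97. By median, wide promoter peaks thus held more ChIP tags per length at a lower ratio to their local background. Every peak had passed the same calling threshold, with a lowest score of 50.03, and the median tag count was 110 in members and 53 in narrow promoter peaks. The part of the threshold in the difference in fold was not tested. The 455 wide peaks away from promoters had much the same values as the members, with a median of 17.02-fold and 43.4 tags per kb.

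**Figure D1:**
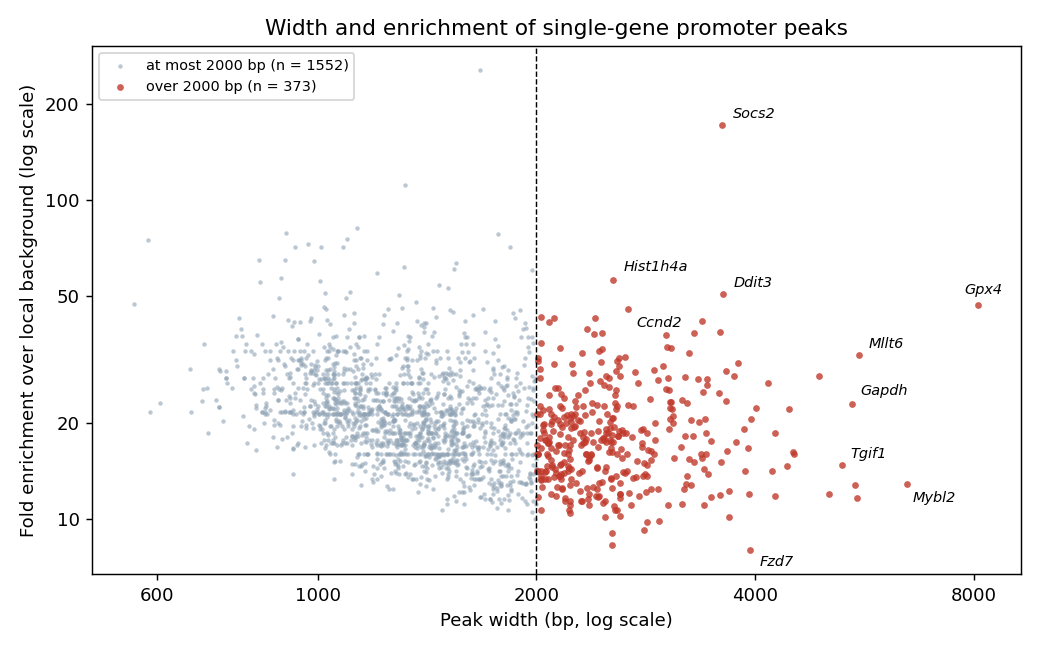
Fold enrichment over local background against peak width for all 1925 single-gene promoter peaks, both axes on a log scale, 1 point per peak. The 373 peaks right of the dashed line at 2000 bp are the members. Socs2 stands above them at 171.18-fold, Gpx4 is the widest at 8116 bp, and Fzd7 is the lowest at 7.98-fold.

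Among the members, width carried little of the order in fold enrichment. Spearman's rho between width and fold was 0.046 over the 373 members and −0.363 over the 1552 narrow promoter peaks. Width and tags per kb gave 0.328 in members, and width and tag count, which share the length of the peak, gave 0.757. Median tags per kb were 41.3 in the 195 members of up to 2500 bp and 52.2 in the 18 members over 4000 bp. All these points come from the same pooled libraries, and the coefficients are a description.

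Socs2 stood apart. It encodes a feedback inhibitor of cytokine and growth hormone signalling, and its peak, chr10:95415042-95418644, was 3603 bp wide with 984 tags and 171.18-fold enrichment. Its 273 tags per kb were the most of all 3878 peaks, and its summit lay 62 bp upstream of the TSS. The next member by fold was Hist1h4a, a histone H4 gene, at 56.2. Ddit3, which encodes the stress response factor CHOP, followed at 50.53-fold with 220 tags. No other member exceeded 50-fold, so 3 of 373 did (0.804%), against 28 of 1552 narrow promoter peaks (1.80%).

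Below 50-fold the order was close. Gpx4, a glutathione peroxidase that protects membrane lipids, reached 46.81-fold, and Ccnd2, which encodes cyclin D2, reached 45.43-fold with 123 tags over 2672 bp. Lsr (42.9), Tbl1xr1 (42.66), Rrp36 (42.55), B3galt4 (41.67) and Klf7 (41.47) lay close together. Tbl1xr1 encodes a subunit of nuclear receptor corepressor complexes, and Klf7 a Krüppel-like factor of the nervous system. Hist1h1d (39.34) and Zc3h10 (38.56) completed the 12 highest.

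At the other end, Fzd7, a Wnt receptor gene, had the lowest fold of all 3878 peaks, 7.98, although its peak was 3941 bp wide and held 133 tags. Vdac1, which encodes a channel of the outer mitochondrial membrane, had 8.27-fold with 107 tags. Zfp687 (9.01), Ankrd10 (9.25), Tuba1b (9.75) and Cxxc5 (9.88) followed. Against the median of 110 tags over all members, Fzd7 and Tuba1b (156 tags) lay above it and the other 4 just below it, with 102 to 107.

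The score, −10 log10 of the p-value that the peak caller gave, had a median of 101.35 in members and 69.1 in narrow promoter peaks. The false discovery rate in the authors' table behaved differently at the top. The 10 peaks with the highest scores had a rate close to 100% divided by their rank, so Socs2, first of all peaks, carried a rate of 100%. Gpx4 (7.14%) and Mnt (5.88%), which encodes a partner of MAX that opposes MYC, were the other members above 5%. A filter at 5% would therefore remove the member with the most tags, and none was applied.

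The widest member was Gpx4 on chr10:80050530-80058645, 8116 bp with 570 tags. Mybl2, a cell cycle transcription factor of the MYB family, had 6476 bp at 12.85-fold, and Mllt6 had 5565 bp at 32.67-fold. Tlcd1 (5530 bp, 11.61-fold), Cox20 (5495 bp, 12.77-fold), Gapdh (5434 bp, 22.9-fold), Tgif1 (5261 bp, 14.73-fold) and Hmga1 (5057 bp, 11.97-fold) were the others over 5000 bp. Gapdh encodes a glycolytic enzyme, Tgif1 a homeodomain corepressor and Hmga1 an architectural chromatin protein. The 12 widest ended with Ptma (4893 bp, 28-fold), Trp53 (4521 bp, 15.96-fold), Gtf2i (4514 bp, 16.22-fold) and Trim28 (4456 bp, 22.04-fold). Fold enrichment among these 12 ranged from 11.61 to 46.81 and did not follow the order of width.

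**Figure D2:**
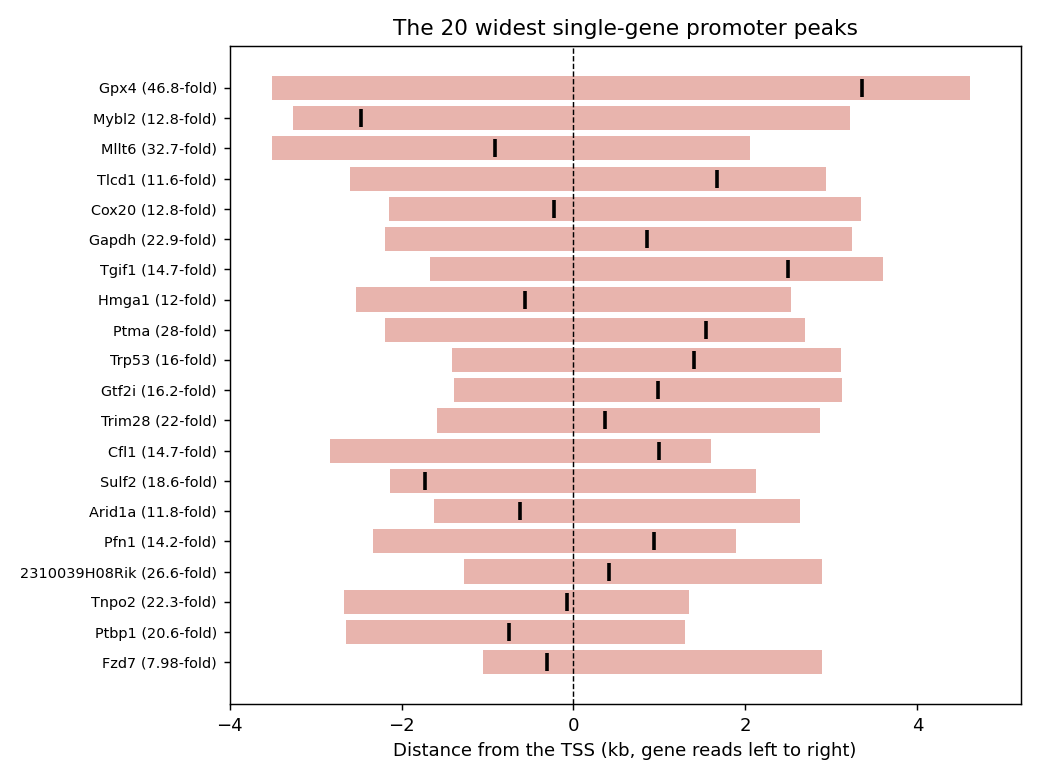
Extent of the 20 widest members around the TSS of the authors' list (dashed line), with each gene reading left to right. Bars span the peak and black ticks mark its summit. Every bar crosses the TSS, and the summits lie on both sides, from 2472 bp upstream in Mybl2 to 3358 bp downstream in Gpx4.

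Tags per kb gave another order behind Socs2. Hist1h1d, a linker histone gene, had 100 tags per kb, and Hmgn2, a nucleosome-binding protein gene, had 94.5. Cd68, a lysosomal glycoprotein gene, had 89.9, and Eif4a1, which encodes an RNA helicase of translation initiation, had 89.8. Hist1h4a had 87.9. Cd68 and Eif4a1 are neighbours on chromosome 11, and Cd68 was 464 bp from the peak of Mpdu1, also a member.

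Members sat on their TSS less tightly than narrow promoter peaks. A peak summit could be placed relative to the direction of the gene in 365 of 373 members and 1510 of 1552 narrow promoter peaks. It lay within 250 bp of the TSS in 178 members (48.8%, 43.5 to 54.0%) and in 1091 narrow promoter peaks (72.3%, 69.9 to 74.5%). The median distance was 264 bp and 138 bp. A wider peak gives the summit more room, so part of this follows from the rule.

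Summits over 1000 bp from the TSS were seen in 33 members (9.04%), 18 downstream and 15 upstream, and in 17 narrow promoter peaks (1.13%). Over 1500 bp there were 12 members and 0 narrow promoter peaks. Downstream these were Gpx4 (3358 bp), Tgif1 (2492 bp), Ajuba (1934 bp), Hnrnpl (1804 bp), Tlcd1 (1668 bp), Pitpnc1 (1547 bp) and Ptma (1546 bp). Upstream they were Mybl2 (2472 bp), Ssbp4 (2029 bp), Sulf2 (1725 bp), Baz2a (1653 bp) and Celsr3 (1628 bp). In these genes the peak held the TSS, and the highest point of the ChIP signal was elsewhere.

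**Figure D3:**
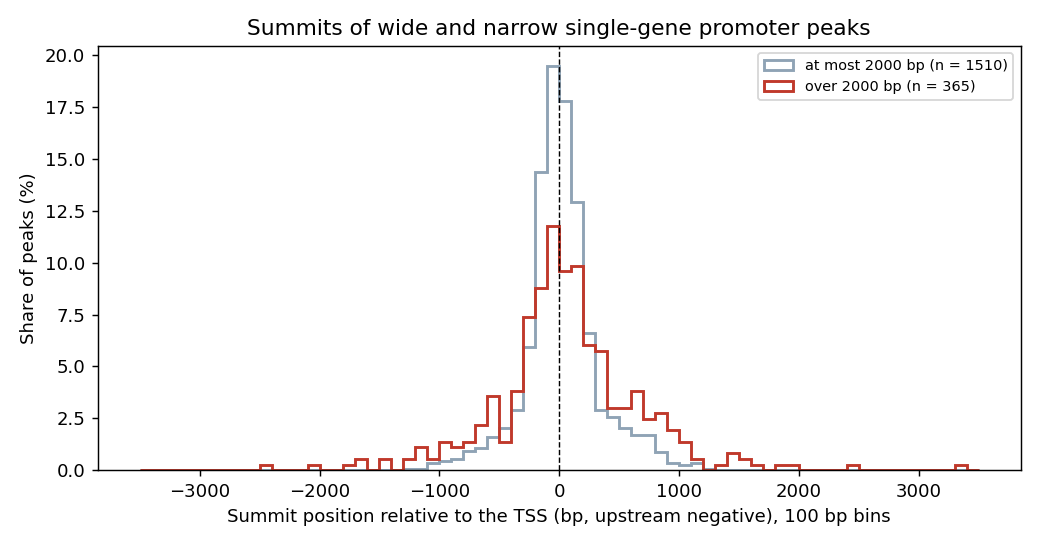
Position of the peak summit relative to the TSS of the listed gene in bins of 100 bp, as a share of 365 members and of 1510 narrow promoter peaks. The narrow class is concentrated within 250 bp of the TSS (72.3%), and the members spread farther on both sides (48.8%).

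The peaks extended to both sides of the start. The median reach was 1156 bp upstream and 1365 bp downstream in members, and 604.5 bp and 657 bp in narrow promoter peaks. In 133 of 365 members (36.4%) both sides reached over 1000 bp. The centre lay downstream of the TSS in 223 of 373 members (59.8%, 54.6 to 64.8%), upstream in 149 and exactly at it in 1, Hist1h3g. Among narrow promoter peaks the downstream share was 56.1% (53.5 to 58.5%), and the intervals of both classes overlap. A median of 62.7% of a member's width and 60.0% of a narrow promoter peak's width lay inside the listed gene.

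Genes with a wide peak were shorter by median. Their median length from end to end in RefSeq was 15812 bp over 371 matched members, against 23799 bp over 1544 narrow promoter peaks. Of the single-gene promoter peaks at genes of up to 5 kb, 76 of 264 were wide (28.8%, 23.4 to 34.7%), and of those at genes of 5 to 10 kb 65 of 269 (24.2%, 19.2 to 29.7%). In the 4 longer classes the share was between 15.4% and 17.0%. The side of the TSS went with length as well. The median gene length was 12073 bp for members centred downstream of the TSS and 27027 bp for those centred upstream.

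**Figure D4:**
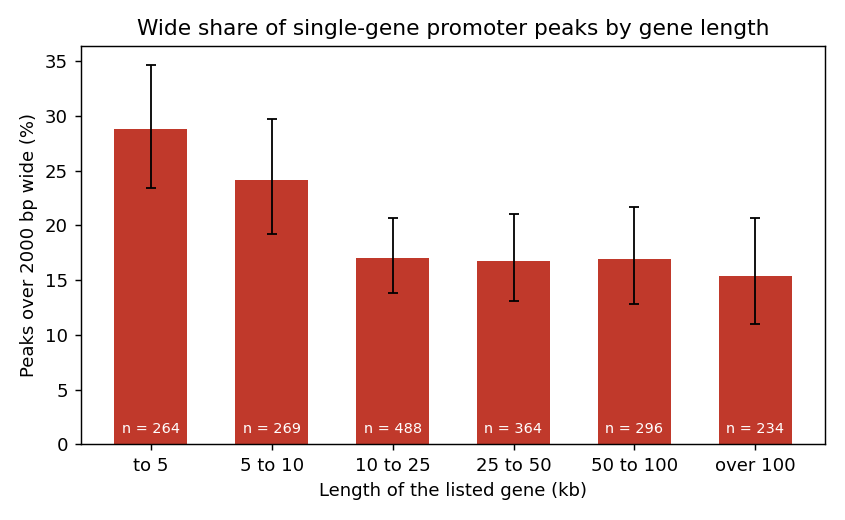
Share of single-gene promoter peaks that were over 2000 bp wide, by length of the listed gene, with exact 95% binomial intervals and the number of peaks in each bar. The share is 28.8% at genes of up to 5 kb and between 15.4% and 17.0% at genes over 10 kb.

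A number of members spanned much of their gene. At least 50% of the gene was covered in 48 of 371 members (12.9%) and in 33 of 1544 narrow promoter peaks (2.14%), a difference to which the widths themselves contribute. The whole gene was covered in 15 members: Tlcd1, Znhit2, Sh3bgrl3, Spsb2, Leng9, Gpx1, 2310039H08Rik, 2200002D01Rik and 7 histone genes. Cox20, which encodes an assembly factor of cytochrome c oxidase, was covered to 95.3%, and Gapdh to 85.2%. Gapdh had 350 tags, and its summit lay 852 bp downstream of the TSS, inside the gene. How reads with several equal matches were treated is not stated in these sources, so values at genes with near-identical copies (Gapdh, Ptma, histone and ribosomal protein genes) are uncertain.

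Wide promoter peaks often had company. Another peak lay within 10000 bp of 119 members (31.9%, 27.2 to 36.9%) and of 196 narrow promoter peaks (12.6%, 11.0 to 14.4%). Of these 119 neighbours, 72 were listed for the same gene, 59 were themselves over 2000 bp, and 15 were members. In 43 cases the gap was under 2000 bp. Stub1, a ubiquitin ligase gene, was 31 bp from the next peak and Hnrnpl 43 bp, so in these places separate peak calls nearly touched. Rhof, at 19.82-fold, was 116 bp from a peak of 9129 bp and 148.18-fold that is second in score of all peaks and is listed for Setd1b.

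Nanog, a pluripotency gene, had 5 peaks in all, of which the member (19.15-fold, 2496 bp) had a summit 978 bp downstream of the TSS. The others lay 4329 bp upstream and 8019, 20547 and 33777 bp downstream, and ranged from 15.07- to 20.52-fold. Klf9, which encodes a Krüppel-like factor, had 6. Its member, 3047 bp and 25.39-fold, was centred 702 bp downstream of the TSS, and the peak of 4584 bp next to it was centred 6183 bp upstream at 16.72-fold. Its higher peaks lay farther upstream, with 268.62-fold at 65266 bp and 53.19-fold at 46117 bp, and those 11101 and 28595 bp downstream had 15.99- and 24.02-fold. Both genes were singled out after their values had been seen.

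The rule counts only TSSs in the authors' gene list. By RefSeq, 23 members (6.17%, 3.95 to 9.11%) held the start of a further protein-coding gene, against 38 narrow promoter peaks (2.45%, 1.74 to 3.35%). A wider peak has more room for a further start, so part of this difference follows from the rule. The median width was 2482 bp in members and 1326.5 bp in narrow promoter peaks. Among the 23 were Trp53 with Wrap53, Ddit3 with Mbd6, Zc3h10 with Rpl41, Rpl24 with Zbtb11, Rps2 with Rnf151, Cfl1 with Mus81, Tlcd1 with Nek8 and Hist1h3b with the H2A gene H2ac4. Their tags cannot be divided between both starts. Small nucleolar RNAs guide modification of ribosomal RNA, and their genes are often hosted in introns. Such genes overlapped 7 member peaks and 1 narrow promoter peak, and the widths themselves contribute to this difference too. Among these genes were Snord42a at the peak of Tlcd1, Snora78 at that of Rps2 and Snord14a at that of Rps13. Each peak is named here by its listed gene, which need not be the host.

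Gene groups were read against all protein-coding genes. Of 21900 such genes, 370 (1.69%) were listed for a member and 1533 (7.00%) for a narrow promoter peak. In all, 62 distinct genes of the 17 lists had a member peak, and 311 members belonged to none. The list shares below are descriptions of 1 pooled data set, were not tested, and the lists were written with earlier results of these data known.

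Ribosomal protein genes had a member in 9 of 83 cases (10.8%), among them Rps15a, Rps2, Rpsa, Rpl24, Rpl7, Rps15, Rps13 and Rps6. Their folds ran from 13.49 (Rps6) to 29.1 (Rps15a) with a median of 16.3, below the median of 17.48 over all members. Rps15a had 165 tags over 3644 bp, and its summit lay 801 bp upstream of the TSS. Narrow promoter peaks were listed for 14 of the 83. A peak of any kind was listed for 64 of the 83, and for 4395 of all 21900 protein-coding genes.

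Many of the other ribosomal protein genes had their nearest peak farther into or past the gene. For 32 of the 64 with a peak (50.0%) the nearest peak was centred between 1000 and 10000 bp downstream of the TSS, and for 1 the same distance upstream. Over all 4395 protein-coding genes with a peak these shares were 7.46% downstream and 7.55% upstream. Of the 32 downstream peaks 25 were over 2000 bp, with a median width of 3880 bp and a median of 18.4-fold. Among the widest were Rps20 (7855 bp, centred 3569 bp downstream), Rps12 (7481 bp, 2898 bp) and Rpl27a (7304 bp, 2395 bp). The 9 ribosomal members thus stood beside 25 wide peaks of the same gene family that the distance limit left out. A listed peak can also lie in a neighbouring gene. This count was added after the data had been seen and was not tested.

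Translation factors had a member in 8 of 72 cases (11.1%): Eif4ebp1 (28.75-fold), Eif4a1 (23.19), Eef2 (18.24), Pabpc1 (17.48), Eif5a (15.07), Eif5 (12.41), Eif4g2 (11.82) and Eif2s2 (10.44). Eif4ebp1 encodes a repressor of cap-dependent initiation, Eef2 the elongation factor that moves the ribosome along, and Pabpc1 the cytoplasmic poly(A)-binding protein. RNA processing factors had 8 of 106 (7.55%), with the heterogeneous nuclear ribonucleoprotein genes Hnrnpa0 (22.8-fold), Hnrnpa3 (20.07), Hnrnpl (15.24), Hnrnpu (12.24) and Hnrnpab (10.11) and the splicing factor genes Srsf1 (19.34), Srsf6 (11.4) and Srsf10 (11.23). Their median was 13.7-fold, under that of all members. Narrow promoter peaks were listed for 12 of the 72 translation factors (16.7%) and 12 of the 106 RNA processing genes (11.3%). The share over all protein-coding genes was 7.00%, so the high shares of both lists are not particular to wide peaks.

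Glycolysis genes had a member in 4 of 17 cases (23.5%), Gapdh (22.9-fold), Pkm (19.34), Eno1 (18.62) and Aldoa (17.48), and a narrow promoter peak in 1. Actin and tubulin genes had a member in 4 of 20 cases (20%) and a narrow promoter peak in 4 as well. Their members were among the widest, with a median of 3849 bp. Cfl1, which encodes the actin-severing protein cofilin, had 4430 bp at 14.65-fold, and Pfn1, which encodes profilin, 4216 bp at 14.18-fold. Stmn1, a microtubule regulator of growing neurons, had 3482 bp at 17.55-fold, and Tuba1b 2835 bp at 9.75-fold. Actb (7109 bp, 33.37-fold, centred 2776 bp from its TSS) and Ppia (5664 bp, 41.94-fold, 1363 bp) were wide as well but lay past the distance limit.

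Further groups of broadly expressed genes were counted the same way. Heat shock and chaperonin genes had 3 of 46 (6.52%), Hsp90ab1 (26.35-fold), Hspa4 (17.02) and Hspa5 (11.4), with 4 at narrow promoter peaks (8.70%). Oxidative phosphorylation had 1 of 101 (0.990%), Uqcr11 at 14.18-fold. Proteasome subunits had 0 of 37, with 4 at narrow promoter peaks. Both counts are close to what the share of 1.69% over all protein-coding genes gives for lists of this size. Small RNA genes and their hosts, by name, had 0 of 152, and a peak of any kind was listed for 2. Snord42a, Snora78 and Snord14a overlapped member peaks that were listed under other genes. This 0 thus depends on which genes the authors' list names and is not comparable with the share of 1.69%.

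**Figure D5:**
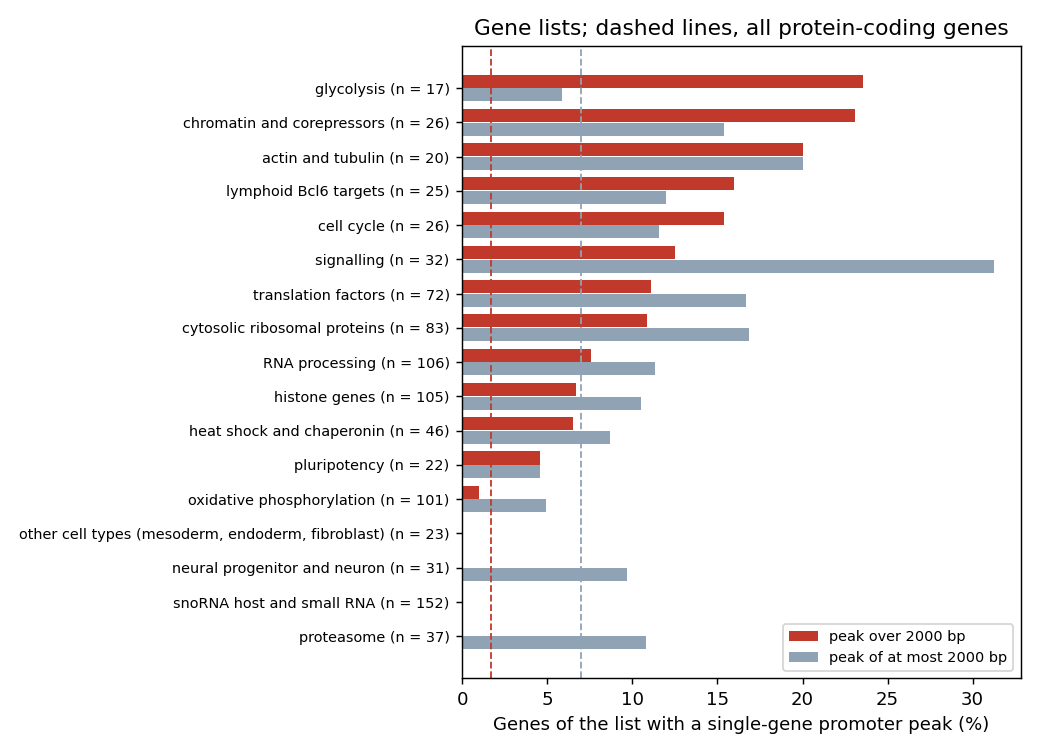
Share of the genes in each list with a member peak and with a narrow promoter peak. Dashed lines are the shares over all protein-coding genes, 1.69% and 7.00%. Glycolysis (23.5%) and chromatin and corepressor genes (23.1%) have the highest member shares, and 4 lists have none. The small RNA list is among the 4, and its value depends on which genes the authors' list names.

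Histone genes had the highest median fold of the lists with at least 6 members. Of 105 genes 7 had a member (6.67%): Hist1h4a (56.2-fold), Hist1h1d (39.34), Hist1h3b (37.84), Hist1h4i (34.57), Hist1h1b (24.6), Hist1h4h (21.39) and Hist1h3g (20.21). The median was 34.6-fold, and all 7 lay above the median of all members. All 7 sit in the histone clusters of chromosome 13, and each peak covered the whole gene, since these genes are between 403 and 794 bp long. The summit lay downstream of the start by 632 to 904 bp in all of them but Hist1h4a, where it was 501 bp upstream. In those 6 the summit lay past the end of the gene, as in Hist1h3b, with a gene of 496 bp and a summit at 647 bp. Narrow promoter peaks were listed for 11 of the 105 histone genes (10.5%, against 7.00% over all protein-coding genes). Hist1 genes with narrow promoter peaks also had summits downstream of the start, from 453 bp in Hist1h4c to 870 bp in Hist1h3h. Other histone genes stand nearby, and a further 13 were listed at promoters shared by more than 1 gene.

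Chromatin regulators and corepressors had a member in 6 of 26 cases (23.1%) and a narrow promoter peak in 4. Tbl1xr1 was highest at 42.66-fold, with its summit 334 bp upstream of the TSS. Mll1, a histone H3 methyltransferase gene (now Kmt2a), had 15.96-fold, Ezh2, the catalytic subunit of Polycomb repressive complex 2, had 13.68, Mta3, a subunit of the NuRD complex, had 12.00, and Cxxc5 had 9.88. Their median of 14.8-fold and 35.5 tags per kb was below that of all members, and 4 of the 6 lay under the median fold of all members.

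Cell cycle genes had 4 of 26 (15.4%): Ccnd2 (45.43-fold), Mycn (23.32), E2f1 (14.63) and E2f3 (12.83). Mycn encodes the MYC relative of neural progenitors, and its summit lay 1469 bp upstream of the TSS. Of 25 lymphoid target genes of Bcl6, 4 had a member (16%), Socs2, Ccnd2, Trp53 and the checkpoint kinase gene Chek1 (14.89-fold). Bcl6 itself (902 bp, 64.77-fold) and the cytokine feedback gene Cish (1550 bp, 63.3-fold) had narrow peaks with higher folds than any member but Socs2. Ccnd2 counts in both lists.

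Signalling genes had 4 members of 32 (12.5%) and 10 narrow promoter peaks (31.2%). Gli2, a transcription factor of Hedgehog signalling, had 24.44-fold, and Rbpj, the DNA-binding partner of activated Notch, 22.16. Lrp6, a Wnt coreceptor gene, had 21.28-fold at the narrowest width among members, and Fzd7 7.98. Neural progenitor and neuron genes had 0 members of 31 and 3 narrow promoter peaks (9.68%, against 7.00% over all protein-coding genes). Among them, Hes1, a Notch effector, had a wide peak of 3592 bp at 13-fold centred 1219 bp upstream, past the distance limit, and Hes5 had 0 peaks. Pluripotency genes had 1 of 22, Nanog, and genes of mesoderm, endoderm and fibroblasts had 0 of 23. The member counts of the neural, pluripotency and other cell type lists are close to what the share of 1.69% gives for lists of this size. This holds for members only. A peak of any kind was listed for 15 of 22 pluripotency, 14 of 31 neural and 3 of 23 other cell type genes. Over all protein-coding genes it was 4395 of 21900. For 5 of the 15 pluripotency genes the nearest peak was centred 1000 to 10000 bp downstream, 4 of these over 2000 bp, and for 3 upstream.

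Members were unevenly spread over chromosomes. The share of single-gene promoter peaks that were wide was 30.2% on chromosome 7 (51 members), 26.7% on chromosome 17 (32), 25.5% on chromosome 11 (50) and 24.8% on chromosome 10 (29). It was 4.76% on chromosome X (1 member) and 7.5% on chromosome 18 (3). Gene length and spacing differ between chromosomes, and their part in this was not tested.

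Promoter letters were read in RefSeq windows of 300 bases, 250 before and 50 after the start, for 305 members and 1211 narrow promoter peaks. This start is the RefSeq start of the gene nearest the TSS of the authors' list. It could lie up to 1000 bp from that TSS. Motif places below are counted from the RefSeq start, while summit distances from the TSS use the authors' list. The windows of members had a median GC content of 65.7% and a median observed over expected CpG ratio of 0.859. Narrow promoter peaks had 65.0% and 0.820, and all 21263 protein-coding windows 56.3% and 0.567. A ratio over 0.6 was found in 269 members (88.2%), in 86.5% of narrow promoter peaks and in 47.6% of protein-coding windows. Both classes of promoter peak were thus CpG-rich, and the difference between them was small beside that from other promoters.

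The Bcl6 element was rare in these windows. TTCCTNGAA, read on both strands, was present in 2 of 305 members (0.656%, 0.0795 to 2.35%), in 14 of 1211 narrow promoter peaks (1.16%, 0.633 to 1.93%) and in 1.41% of protein-coding windows. The 2 were Gtf2i and Mmp23. In Gtf2i, printed above, it started 24 bases before the RefSeq start and lay 1009 bp from the summit, and the peak reached 16.22-fold. In Mmp23 it lay across the start, 218 bp from the summit of a peak of 11.97-fold. The intervals of members and narrow promoter peaks overlap, and the share was not higher than in promoters at large. The windows cover 300 bases of peaks that are over 2000 bp wide, so most of each peak was not read.

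The shorter element TTCNNNGAA, which every TTCCTNGAA also matches, was present in 12 members (3.93%, 2.05 to 6.77%), 6.94% of narrow promoter peaks (5.57 to 8.52%) and 7.69% of protein-coding windows. In Klf9 it stood 33 bases before the start and 249 bp from the summit, and in Nop58, which encodes a core protein of small nucleolar ribonucleoproteins, 46 bases before the start and 661 bp from the summit. The 12 members had a median of 18.01-fold and ranged from 11.52 to 33.15, around the median of all members. Socs2 and Ccnd2 had no window in the table.

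The letters of the TATA box separated the classes more than the Bcl6 element did. TATAAA was found in 31 members (10.2%, 7.01 to 14.1%) and in 4.71% of narrow promoter peaks (3.58 to 6.06%), with 12.6% in protein-coding windows. Among the 31 were Hist1h3b, where it started 29 bases before the RefSeq start, Hist1h1d, at 26 bases, and Hist1h1b, at 28 bases. Matches were counted on either strand and anywhere in the window, so not all 31 stand where a TATA box acts. In Trp53 the match was on the other strand, 248 bases before the RefSeq start, and in Hist1h4a it was 41 bases past it. Members with it reached 56.2-fold and had a median of 18.62-fold. CCGGAAG, the element of ETS factors, was found in 43 members (14.1%, 10.4 to 18.5%) and in 19.2% of narrow promoter peaks (17.1 to 21.6%), with 11.6% in protein-coding windows.

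GC-rich elements went with the base composition of both classes. GGGCGG, the element of SP and Krüppel-like factors, was found in 80.0% of members, 77.8% of narrow promoter peaks and 46.2% of protein-coding windows. The NRF1 element was found in 31 members (10.2%) and 11.1% of narrow promoter peaks, against 6.38% of protein-coding windows. In Ptma, which encodes prothymosin alpha, a small acidic chromatin protein, it started 85 bases before the RefSeq start and lay 1805 bp from the summit. AAGATGGC, the element of YY1, was found in 17 members (5.57%) and 4.54% of narrow promoter peaks, with 3.05% in protein-coding windows. CCAAT was found in 38.4% of members, 33.4% of narrow promoter peaks and 38.2% of protein-coding windows. A match describes letters in a window and is not a binding site.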

How the data were processed

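Chromatin from the pooled Bcl6 ChIP and the pooled input was compared in 1 table of peaks and 1 list of genes per peak. Peaks were called by the authors with MACS 1.4.2, per the file headers, at a p-value of up to 1e-05. Tags were 26 bp long, the band width was 300 bp, fragments were taken as 188 bp, and repeated tags at a position were reduced to 1. The submitters' processing notes name Bowtie and mm10. After removal of repeated positions 11718276 of 56836596 ChIP tags (20.6%) and 5048582 of 12808138 input tags (39.4%) remained, per the file headers. Tag counts per peak were deposited as raw counts of ChIP tags. Fold enrichment was deposited as a ratio to local background, read over 1000 and 10000 bp. The score was deposited as −10 log10 of the p-value. Its column name had been overwritten and was taken from the column order and the minimum of 50.03. The false discovery rate was deposited in percent. The gene list came from GREAT 3.0.0, per the file headers, and gives the distance from peak centre to TSS.

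Peaks and genes were joined by peak number in Python 3.11.15 with pandas 2.3.3. Symbols were matched to RefSeq (GRCm38.p6), 351 members by symbol, 20 by an older symbol and 2 not at all. The TSS was placed from the peak centre and the listed distance, and the strand was that whose TSS met a RefSeq start or gene end, which left 8 members without one. The depth of single libraries was not analysed here, peak values have no replicate error, and no test was run. The procedure was tested on simulated peaks.

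Members and lists were chosen with earlier results of these data known. Genes named were the 12 members highest in width, fold, tags and tags per kb, the 6 lowest in fold, those at both thresholds, those covering most of a gene, up to 6 of each list by fold, and Actb, Ppia, Socs2, Bcl6, Cish, Ccnd2, Hes1 and Hes5. Chosen after values had been seen were further list members, genes with far summits, near neighbours, other gene starts or motifs, the 10000 bp windows, the gene length classes and the CpG ratio of 0.6. Ribosomal genes whose symbols end in bp and a digit, which encode binding proteins, were also left out of that list after the files were seen. Values of some genes are not reported here.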

Additional observations from a re-analysis of the deposited data

How the results depend on the processing

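No paired analysis was possible because each group was pooled before peak calling, and for the same reason no replicate could be left out. Of 73 recomputed summary values, 54 stayed within 1.5 times the main value, for counts, or within its 95% interval, for shares and medians. Narrow promoter peaks were not recomputed. The rest moved mainly with the width rule, which defines the members. At a width over 1500 bp there were 870 members, 45.2% of single-gene promoter peaks, with 42.6 tags per kb, a summit 217 bp from the TSS and 98 list genes. Over 3000 bp there were 86 members (4.47%), with 19.2-fold, 50.5 tags per kb, a summit at 541 bp and 21 list genes. The wide share was 16.3% with TSSs within 500 bp and 21.6% within 2000 bp, where the summit distance was 317 bp. With scores at or above the median of all peaks the wide share was 28.7%, with 19.4-fold and 46.2 tags per kb. The Bcl6 element was in 0% of members in the first 200 bases of the window and 3.93% with the shorter motif. With the summit in place of the centre 381 peaks met the rule, 14 ribosomal protein genes in place of 9. Of 136 recomputed counts of single gene lists, 98 stayed within 1.5 times the main count and 38 moved. With TSSs within 500 bp, glycolysis fell from 4 to 2 and chromatin and corepressor genes from 6 to 3. Within 2000 bp, pluripotency genes rose from 1 to 6. Without histone genes or without Socs2, both added after the data were seen, the median was 17.42- and 17.48-fold. The depth of the pooled input, lower than that of the ChIP, limits the precision of every fold.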
